A study of Ovis aries with 14 samples.

Results

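The genes described here belong to the endoplasmic reticulum chaperones and the unfolded protein response, measured in the hypothalamus of fetal sheep (Ovis aries). They were chosen by name, as every array probe whose gene name in the scanner files or whose matched symbol was HSPA5, PDIA4, XBP1, ATF4, DDIT3 or DERL1. The choice gave 6 of the 902 named genes that could be tested, with 10 of the 15008 probes on the array. All 10 probes were well above background on all 13 arrays used, so none was lost to the filter on dim probes that left 13738 probes for testing.

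Single-colour Agilent ovine arrays were hybridised with hypothalamic RNA of fetuses at around 130 days of fetal age. In the direct arm the catheterised fetus received an intravenous infusion for 2 days, either of vehicle (n = 4) or of triclosan, an antibacterial compound, at a daily dose of 250 µg (n = 4). The indirect arm had the infusion into the circulation of the ewe for 2 days, either of vehicle or of triclosan at 100 µg/kg each day (n = 3). The sources used here name no breed or fetal sex and do not say if each array is a separate pregnancy, so p-values measure the spread between these arrays. Maternal vehicle replicate 3 equalled 0.6 times replicate 1 plus 0.4 times replicate 2 at all 15744 spots and was left out, which leaves n = 2 for maternal vehicle.

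The endoplasmic reticulum folds secreted and membrane proteins, and neuroendocrine cells of the hypothalamus secrete large amounts of peptide. HSPA5 (BiP) is the Hsp70-type chaperone of this compartment, and PDIA4 (ERp72) is a disulfide isomerase that works beside it. When unfolded protein accumulates, the sensors IRE1, PERK and ATF6 are engaged. IRE1 splices the mRNA of the transcription factor XBP1, PERK signalling favours translation of the transcription factor ATF4, ATF4 induces the transcription factor DDIT3 (CHOP), and HSPA5 is a classical target of the response. DERL1 (Derlin-1) is a membrane protein that takes part in moving misfolded proteins out to the cytosol for degradation. A 60-base probe reads the amount of a transcript and carries no information on splicing, translation or protein.

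The probes of the genes whose signal fell, and the near-identical probe pairs of 2 transcription factors, are printed because the results turn on what each of them reads. They are given 5′ to 3′ as the scanner files list them, and capitals mark the stretch that both probes of a gene share.
HSPA5, A_70_P016527: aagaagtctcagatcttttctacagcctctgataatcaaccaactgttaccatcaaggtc
HSPA5, A_70_P016526: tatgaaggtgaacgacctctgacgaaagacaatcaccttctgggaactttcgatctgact
PDIA4, A_70_P059651: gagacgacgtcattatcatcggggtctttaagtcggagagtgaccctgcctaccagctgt
XBP1, A_70_P001447: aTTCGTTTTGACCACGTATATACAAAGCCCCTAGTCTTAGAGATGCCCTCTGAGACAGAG
XBP1, A_70_P001446: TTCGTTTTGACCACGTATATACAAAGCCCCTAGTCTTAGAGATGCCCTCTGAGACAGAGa
DDIT3, A_70_P049677: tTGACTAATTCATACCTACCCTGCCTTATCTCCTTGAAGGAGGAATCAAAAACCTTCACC
DDIT3, A_70_P049676: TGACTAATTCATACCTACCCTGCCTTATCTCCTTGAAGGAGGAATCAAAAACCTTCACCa

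The HSPA5 probes share 0 bases, the XBP1 and DDIT3 pairs each share 59 of 60 bases, and the DERL1 pair shares 30. PDIA4 and ATF4 have 1 probe each. No member probe shares a stretch of 20 bases with a probe of another gene on either strand. The scanner files give their genome positions as unmapped, and no genome coordinates were used here.

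Array brightness differed somewhat between groups. The median processed signal was 236 to 307 on the fetal triclosan arrays and 284 to 380 on the other 9 arrays, so the ranges overlapped. Per array, 83.29% to 90.13% of spots passed the scanner software's test for being well above background, and saturation was reached at 0 spots. Replicates 1, 2 and 3 of the groups lay on slides 1, 2 and 3, fetal vehicle replicate 4 was also on slide 3, and fetal triclosan replicate 4 was alone on slide 4. Of 14 listed hypothalamic peptide genes, 10 were measured, and their summed signal was 9.32 to 57.0 times the array's 75th percentile. The neuron and oligodendrocyte marker lists had 0 genes that could be read by name on this array. The number of arrays limits the precision throughout.

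Levels below are log2 processed signal relative to the 75th percentile of each array, which is set to 0. Differences are log2 values, triclosan minus vehicle, each with its standard error (SE) from limma fitted over 13 arrays and a p-value adjusted by Benjamini-Hochberg over 13738 probes. A difference was called at an adjusted p under 0.05. The probe with the highest mean stands for a gene with several probes.

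The direct arm asks which transcripts differ in the hypothalamus when the fetus itself receives triclosan. Both chaperones fell. PDIA4 was at 0.513 and HSPA5 at 0.642 of the scaled vehicle signal, and neither gene's fetal triclosan and fetal vehicle arrays overlapped. XBP1 lay below all vehicle arrays on 3 of 4 triclosan arrays without passing the test, and ATF4, DDIT3 and DERL1 did not pass it either. In all, 2 of 6 members were called, both lower, while 18.3% of all tested probes were called, 11.6% lower and 6.7% higher. With the slide as a block 3 of 6 were called, XBP1 being the third, and 2970 of 13738 probes, 1856 of them lower. The blocked values do not rest on fetal triclosan replicate 4, the array on which XBP1 lay inside the vehicle range. Without the block, 4 of 6 members had an unadjusted p under 0.05 (HSPA5, PDIA4, XBP1 and DERL1), against 33.3% of all tested probes. The median difference of the 6 members was −0.44, against −0.09 for all tested probes and −0.10 for 902 named genes. In whole tissue, fewer cells of a type and less RNA per cell cannot be told apart.

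**Figure D1:**
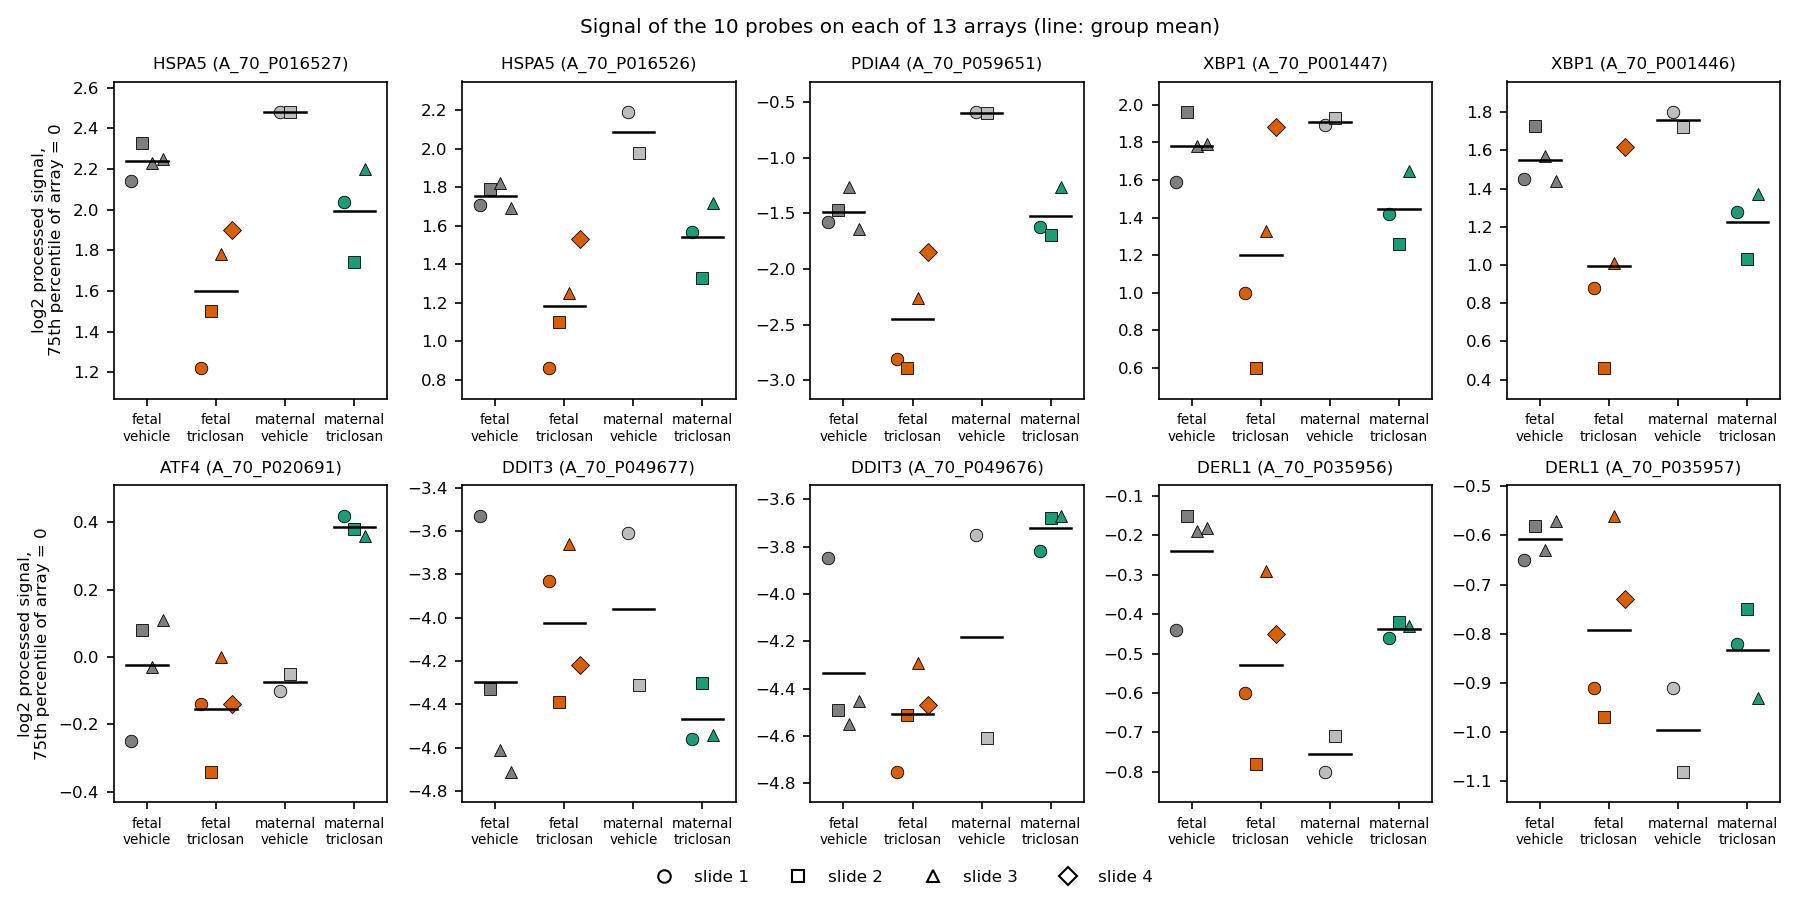
Log2 processed signal of the 10 member probes on each of 13 arrays (vertical axis, 75th percentile of the array = 0) by group, with the slide shown by the point's shape and the group mean as a line. All 4 fetal triclosan arrays lie below all 4 fetal vehicle arrays for both HSPA5 probes and for PDIA4, and the 3 maternal triclosan arrays lie above the other arrays for ATF4.

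The level of HSPA5 (A_70_P016527) with fetal vehicle was 2.14, 2.33, 2.23 and 2.25 on replicates 1 to 4. With fetal triclosan it was 1.22, 1.50, 1.78 and 1.90. Every triclosan array was thus below every vehicle array, and the triclosan arrays were spread more widely than the vehicle arrays. The difference was −0.64 (SE 0.15, 95% interval −0.98 to −0.30, adjusted p = 0.0168), and with the slide as a block it was −0.70 (adjusted p = 0.0115). Within slides 1, 2 and 3 the triclosan array differed from vehicle by −0.92, −0.83 and −0.46. The second HSPA5 probe gave a difference of −0.56 (SE 0.15, adjusted p = 0.0221) and again no overlap between the groups. It shares no base with the first probe but begins where that one ends, at 1053 against 993 in the source sequence. Among all tested probes, 12.7% had every fetal triclosan array below every fetal vehicle array and 9.11% had every one above. The call ended when arrays were scaled to their median in place of the 75th percentile, with a difference of −0.42 and an adjusted p of 0.066. Under that scaling the median of all probes moved from −0.09 to 0.13, and PDIA4 was then the 1 member called.

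For PDIA4, the fetal vehicle arrays read −1.58, −1.47, −1.26 and −1.64. The fetal triclosan arrays read −2.81, −2.89, −2.26 and −1.85. The groups did not overlap, and triclosan replicates 1 and 2 were lowest while replicate 4 came nearest to vehicle. The difference of −0.96 (SE 0.22, 95% interval −1.44 to −0.49, adjusted p = 0.0125) was the largest of the 10 member probes. It was −1.11 with the slide as a block (adjusted p = 0.00479) and −1.23, −1.42 and −0.81 within slides 1, 2 and 3. Since replicate 4 of fetal triclosan had no other array on its slide, the blocked and the within-slide values rest on triclosan replicates 1 to 3.

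XBP1 is measured by a pair of probes offset by 1 base. The first of them (A_70_P001447) stood at 1.59, 1.96, 1.78 and 1.79 with fetal vehicle. It stood at 1.00, 0.60, 1.33 and 1.88 with fetal triclosan. Replicates 1 to 3 of the triclosan group were below all vehicle arrays, whereas replicate 4, the array alone on its slide, lay inside the vehicle range. The difference was −0.58 (SE 0.23, adjusted p = 0.0967) and the other probe gave −0.56 (SE 0.21, adjusted p = 0.0818). Without fetal triclosan replicate 4 the difference was −0.81 (adjusted p = 0.0102). Leaving out other arrays brought it as near to 0 as −0.38, with adjusted p up to 0.217. With the slide as a block it was −0.77 (adjusted p = 0.0146), and within slides 1, 2 and 3 it was −0.59, −1.36 and −0.45.

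The level of ATF4, the transcription factor whose translation PERK signalling favours, was −0.25, 0.08, −0.03 and 0.11 with fetal vehicle. It was −0.14, −0.34, 0.00 and −0.14 with fetal triclosan, so the groups overlapped. The difference of −0.13 (SE 0.11, adjusted p = 0.438) did not pass, and its sign turned to 0.09 with median scaling.

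DERL1 (A_70_P035956) read −0.44, −0.15, −0.19 and −0.18 with fetal vehicle. The fetal triclosan arrays gave −0.60, −0.78, −0.29 and −0.45, with 3 of 4 below all vehicle arrays. The difference was −0.29 (SE 0.12, adjusted p = 0.117), and the second probe gave −0.18 (SE 0.11, adjusted p = 0.272). Without fetal triclosan replicate 3 the first probe's difference was −0.37 (adjusted p = 0.047), the 1 call among 28 other settings. It was −0.21 (adjusted p = 0.249) without fetal triclosan replicate 2 and −0.07 (adjusted p = 0.706) with median scaling.

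DDIT3 was dim, with processed signals of 59 to 159 on the 13 arrays for both probes. The first probe (A_70_P049677) read −3.53, −4.33, −4.61 and −4.71 with fetal vehicle. It read −3.83, −4.39, −3.66 and −4.22 with fetal triclosan, inside the vehicle range on all 4 arrays. Its difference of 0.27 (SE 0.27, adjusted p = 0.52) had the opposite sign to the second probe's −0.17 (SE 0.20, adjusted p = 0.60), and neither passed.

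**Figure D2:**
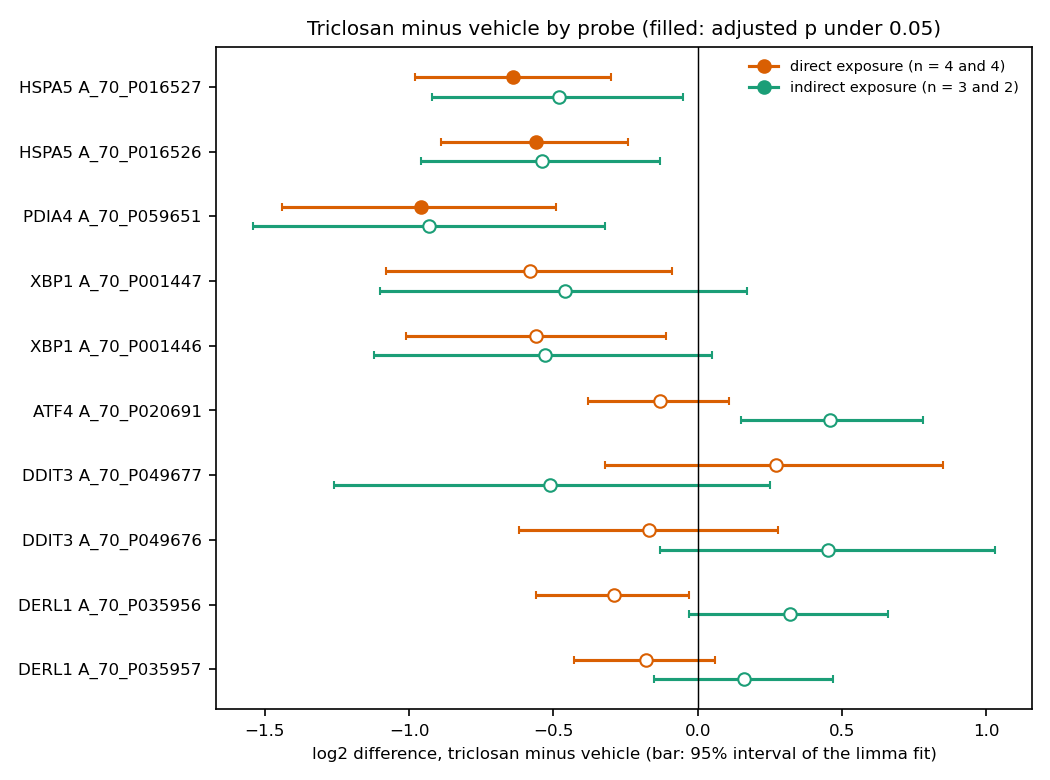
Log2 difference, triclosan minus vehicle (horizontal axis), of each member probe in the direct arm (n = 4 and 4) and the indirect arm (n = 3 and 2), with 95% intervals of the limma fit and filled points where the adjusted p was under 0.05. The 3 filled points are the 2 HSPA5 probes at −0.64 and −0.56 and PDIA4 at −0.96, all in the direct arm.

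The indirect arm asks the same of triclosan given to the ewe. No member was called among 3 maternal triclosan against 2 maternal vehicle arrays, and limma called 0 of 13738 probes (0%), although 1322 (9.62%) had an unadjusted p under 0.05. The unadjusted p was under 0.05 for HSPA5, PDIA4 and ATF4. PDIA4, HSPA5 and XBP1 were lower on every triclosan array, as were 19.3% of all tested probes, and ATF4 and the first DERL1 probe were higher on every triclosan array, as were 19.6%. The members' median difference was −0.47, against 0.01 for all tested probes. That median takes DDIT3 at the first probe's −0.51, whereas the second probe gave 0.45, so it depends on which DDIT3 probe is read.

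PDIA4 stood at −0.59 and −0.60 with maternal vehicle and at −1.62, −1.69 and −1.26 with maternal triclosan. The maternal vehicle arrays were the highest of all 13, while the maternal triclosan arrays lay close to the fetal vehicle range of −1.64 to −1.26. The difference was −0.93 (SE 0.28, 95% interval −1.54 to −0.32, unadjusted p = 0.00638, adjusted p = 0.436). It was −1.03 and −1.09 within slides 1 and 2. When limma weighted the arrays by their quality, PDIA4 was called at −0.98 (adjusted p = 0.0277). Those weights called 378 of 13738 probes in this arm, against 0 without them.

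HSPA5 (A_70_P016527) stood at 2.48 on both maternal vehicle arrays and at 2.04, 1.74 and 2.20 with maternal triclosan. Here too the vehicle arrays were above all fetal vehicle arrays. The difference was −0.48 (SE 0.20, adjusted p = 0.496), and −0.54 (SE 0.19, adjusted p = 0.455) for the second probe. XBP1 (A_70_P001447) was at 1.89 and 1.93 with maternal vehicle and at 1.42, 1.26 and 1.65 with maternal triclosan, a difference of −0.46 (SE 0.29, adjusted p = 0.604). Its second probe gave −0.53 (SE 0.27, adjusted p = 0.547).

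ATF4 went the other way in this arm. It read −0.10 and −0.05 with maternal vehicle and 0.42, 0.38 and 0.36 with maternal triclosan. Those 3 arrays were the highest of the 13 and lay close together, with all fetal arrays at or below 0.11. The difference was 0.46 (SE 0.14, 95% interval 0.15 to 0.78, unadjusted p = 0.00781, adjusted p = 0.436), and 0.52 and 0.44 within slides 1 and 2. With array weights, which called 378 of 13738 probes in this arm, ATF4 was called at 0.48 (adjusted p = 0.043).

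DERL1 (A_70_P035956) was at −0.80 and −0.71 with maternal vehicle and at −0.46, −0.42 and −0.43 with maternal triclosan. The difference of 0.32 (SE 0.16, adjusted p = 0.547) did not pass, nor did the second probe's 0.16 (SE 0.14, adjusted p = 0.704).

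The DDIT3 probes gave opposite signs again, −0.51 (SE 0.34, adjusted p = 0.628) for the first and 0.45 (SE 0.26, adjusted p = 0.588) for the second. The first probe read −3.61 and −4.31 with maternal vehicle and −4.56, −4.30 and −4.54 with maternal triclosan. For the second, A_70_P049676, maternal vehicle gave −3.75 and −4.61 and maternal triclosan gave −3.82, −3.68 and −3.67. Although 59 of their 60 bases are shared, the first minus the second was 0.12 to 0.92 with fetal triclosan, −0.26 to 0.32 with fetal vehicle and 0.14 to 0.30 with maternal vehicle, but −0.86 to −0.63 on the 3 maternal triclosan arrays. A direction for DDIT3 therefore depends on which of the probes is read.

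**Figure D3:**
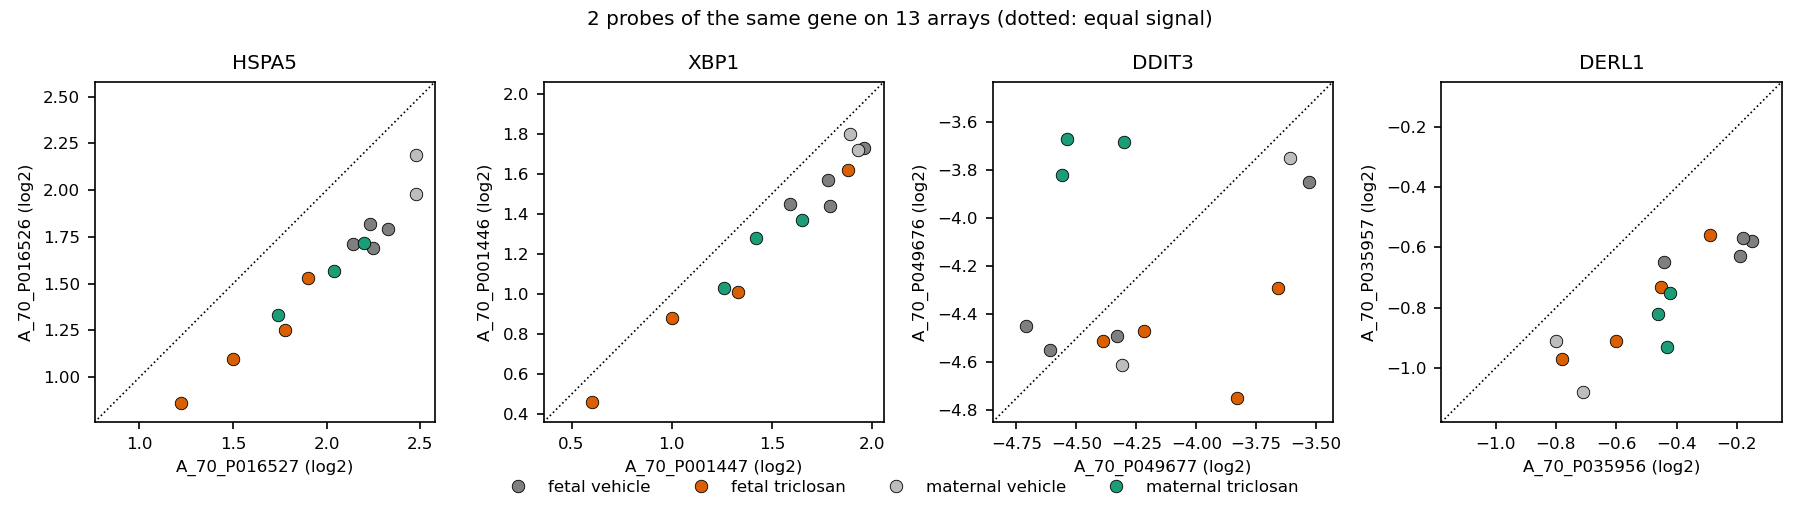
Log2 signal of the first probe (horizontal axis) against the second probe (vertical axis) of HSPA5, XBP1, DDIT3 and DERL1 on 13 arrays, coloured by group, with equal signal as a dotted line. Points follow a line for HSPA5 and XBP1 (Pearson r of 0.98 for both), and the 3 maternal triclosan arrays leave the others for DDIT3 (r of 0.15).

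Probe pairs of the other genes moved together. Over the 13 arrays Pearson's r between the probes was 0.98 for HSPA5, 0.98 for XBP1, 0.87 for DERL1 and 0.15 for DDIT3, and within groups it was 0.93, 0.97, 0.72 and 0.76. The SD of the log2 difference between the probes was 0.08 for HSPA5, 0.08 for XBP1, 0.11 for DERL1 and 0.52 for DDIT3. These are descriptions, since both probes of a pair share the array and its scaling.

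Whether the arms differ was tested as the direct minus the indirect difference. No member and 0 of 13738 probes (0%) passed in limma, while 2032 probes (14.8%) had an unadjusted p under 0.05. For the chaperones the intervals were −0.71 to 0.40 around −0.15 for HSPA5 and −0.81 to 0.73 around −0.04 for PDIA4. Intervals this wide do not show that the arms acted alike. XBP1 gave −0.12 (95% interval −0.92 to 0.69). The sign of these 3 values turned with median scaling. For ATF4 the value was −0.60 (95% interval −0.99 to −0.20, unadjusted p = 0.007, adjusted p = 0.248). For the first DERL1 probe it was −0.61 (95% interval −1.04 to −0.17, unadjusted p = 0.0102, adjusted p = 0.257). The second DERL1 probe gave −0.35 (95% interval −0.74 to 0.05, adjusted p = 0.383). In DDIT3 the first probe gave 0.78 and the second −0.62, with adjusted p of 0.407 and 0.392. Doses and routes differ between the arms, so this compares the designs as run.

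The vehicle groups differ in where the vehicle went, and they share their arrays with the exposure comparisons. PDIA4 was higher with maternal than with fetal vehicle by 0.89 (SE 0.26, unadjusted p = 0.00588, adjusted p = 1), by 0.99 within slide 1 and by 0.87 within slide 2. The first DERL1 probe differed by −0.52 (SE 0.15, unadjusted p = 0.00494, adjusted p = 1). HSPA5 differed by 0.24 (SE 0.19) and 0.33 (SE 0.18), XBP1 by 0.13 (SE 0.28) and ATF4 by −0.06 (SE 0.14), none called. limma called 0 of 13738 probes (0%) here, with 458 (3.33%) at an unadjusted p under 0.05. Maternal vehicle was above fetal vehicle on every array for 9.75% of all tested probes and below it for 7.36%.

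Across the 13 arrays, HSPA5, PDIA4 and XBP1 varied together more closely than with the other members over all arrays. Pearson's r was 0.93 between HSPA5 and PDIA4, 0.86 between HSPA5 and XBP1 and 0.83 between PDIA4 and XBP1, and 0.81, 0.75 and 0.91 within groups. ATF4 correlated with these 3 genes at 0.18 to 0.28, DDIT3 at −0.17 to −0.08 and DERL1 at 0.01 to 0.36. Within groups DERL1 came closer to them, at 0.52 with HSPA5, 0.62 with PDIA4 and 0.70 with XBP1. Within groups ATF4 and DERL1 correlated at 0.89. The arrays of a group share their treatment and each array shares its scaling, so these values describe the arrays.

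The named genes most like each member were ranked by Pearson's r over the same 13 arrays among 887 named genes without missing values. For HSPA5 they were the glutamate receptor gene MGLUR3 (0.96), PDIA4 (0.93) and EAAT1, a glutamate transporter of astrocytes (0.92). For PDIA4 they were HSPA5 (0.93), MAPKAP1 (0.92) and MGLUR3 (0.92). XBP1 was nearest to SLC25A20 (0.96), RHOB (0.95) and SLC39A7, a zinc transporter of the secretory pathway (0.95). ATF4 had weaker neighbours in RASSF1 (0.81), AURKA (0.79) and IGF2 (0.75), as did DERL1 in CYTH2 (0.77), PAG3 (0.77) and XDH (0.76). The first DDIT3 probe was nearest to KRT2.11 (0.98), DLL4 (0.97) and VHNF1 (0.92), 3 genes whose processed signals were between 119 and 951. Several neighbours were dim, among them MGLUR3 (processed signal 29 to 252), PAG3 (6 to 53) and XDH (17 to 119). Within groups the values ran from 0.39 (IGF2 with ATF4) to 0.99 (KRT2.11 with DDIT3). EAAT1 with HSPA5 and MAPKAP1 with PDIA4 were at 0.67 there.

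The direct difference varied with how bright a probe was. Its median over probes was −0.29 in the dimmest of 10 equal classes of mean signal and 0.24 in the brightest. HSPA5 and XBP1 lay in class 9, where the median was 0.11, and 3.86% and 4.37% of that class were lower than their first probes. PDIA4 lay in class 6 with a median of −0.14, and 4.51% of the class was lower. ATF4 and DERL1 lay in classes 8 and 7, with 29.3% and 28.1% of probes lower. The first DDIT3 probe, in class 3, had 85.4% of its class below it. In the indirect arm the shares lower were 4.59% for HSPA5, 0.655% for PDIA4 and 4.73% for XBP1, and 94.5% for ATF4.

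**Figure D4:**
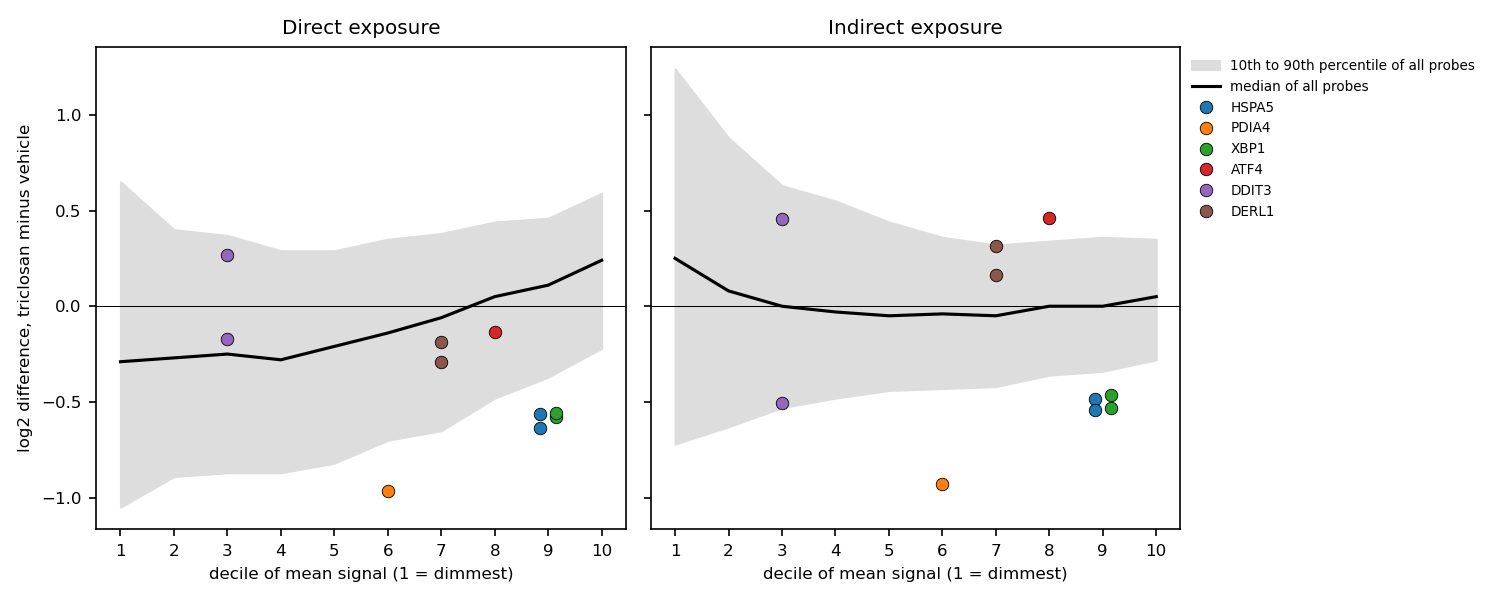
Log2 difference, triclosan minus vehicle (vertical axis), by class of mean signal from 1, dimmest, to 10, brightest (horizontal axis), in each arm. The black line is the median and the grey band the 10th to 90th percentile of all tested probes, and HSPA5, XBP1 and PDIA4 (coloured points, HSPA5 and XBP1 set apart sideways) lie below the band in both arms.

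Few other genes of the pathway could be read by name. Of 25 listed folding genes of the endoplasmic reticulum, 2 were measured, and 1 rose in the direct arm. That gene was ERP29, a lumenal protein related to the disulfide isomerases, at 1.90 to 2.05 with fetal vehicle and 2.34 to 2.55 with fetal triclosan. Its difference was 0.52 (SE 0.10, adjusted p = 0.0083), opposite in sign to HSPA5 and PDIA4, and it was 0.36 (adjusted p = 0.0531) after quantile normalisation. In the indirect arm ERP29 differed by 0.12 (SE 0.13, adjusted p = 0.762). PDIA5, a further disulfide isomerase, gave −0.39 (SE 0.16, adjusted p = 0.118) in the direct arm. With the slide as a block PDIA5 was at −0.51 (adjusted p = 0.0378), and without fetal triclosan replicate 4 it was at −0.51 (adjusted p = 0.0424). Those were the 2 of 26 other settings that called it. Leaving out other arrays brought it as near to 0 as −0.22, with adjusted p up to 0.215. With all arrays kept, other settings brought it to −0.12, with adjusted p up to 0.562.

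Of 9 listed sensor genes 1 was measured, ATF6, at −0.44 (SE 0.15, adjusted p = 0.072) in the direct and −0.53 (SE 0.20, adjusted p = 0.466) in the indirect arm. With all 14 arrays in the fit, which counts the mixture array as a replicate, its adjusted p in the direct arm was 0.0498. That was the 1 call among 26 other settings. The direct difference of ATF6 was −0.12 (adjusted p = 0.423) with normexp correction and −0.18 (adjusted p = 0.501) with quantile normalisation. Of 26 listed genes of the integrated stress response 1 was measured, the transcription factor CEBPB, at −0.40 (SE 0.27, adjusted p = 0.338) and −0.19 (SE 0.35, adjusted p = 0.873). Both probes were dim. Of 20 listed genes of degradation and translocation, 0 were measured.

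Cytosolic heat shock genes stood beside the members in the direct arm. Of 15 listed genes 3 were measured and 2 fell. HSP90AA1, the stress-inducible cytosolic Hsp90, was at 3.31 to 3.46 with fetal vehicle and 2.43 to 2.75 with fetal triclosan, a difference of −0.80 (SE 0.13, adjusted p = 0.00392). The inducible cytosolic chaperone HSP70.1 went from 0.74 to 0.94 with fetal vehicle to −1.51 to −0.20 with fetal triclosan, a difference of −1.48 (SE 0.25, adjusted p = 0.0047). CRYAB, a small heat shock protein, differed by 0.21 (SE 0.29, adjusted p = 0.656). In the indirect arm HSP90AA1 differed by −0.92 (SE 0.17, unadjusted p = 0.000166, adjusted p = 0.272). It was called with array weights (−0.97, adjusted p = 0.0127), as were 378 of 13738 probes. With all 14 arrays, the mixture array counted as a replicate, it was at −0.91 (adjusted p = 0.0419). HSP70.1 differed there by −0.72 (SE 0.33, adjusted p = 0.518).

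Markers of other cell types differed in the direct arm as well. Of 8 listed genes of endothelium and pericytes 5 were measured, 3 of them fell (KDR, FLT1 and CD93), and their summed signal was 0.813 to 1.16 times the 75th percentile with fetal vehicle and 0.560 to 0.763 with fetal triclosan. FLT1 was well above background on 8 of 13 arrays, and its difference of −1.18 was −0.18 (adjusted p = 0.196) with normexp correction. PECAM1 (−0.26) and TIE1 (0.06) were not called. Of 4 measured astrocyte genes FGFR3 fell (a difference of −1.61, and −0.43 with normexp correction), with sums of 62.4 to 77.2 and 64.2 to 91.4. GFAP (−0.63), EAAT2 (−0.30) and AQP4 (0.13) were not called. AHSP was called higher among 3 measured erythroid genes (0.94, adjusted p = 0.038), a call lost in 9 of 26 other settings, the slide block among them (0.74, adjusted p = 0.0768), and the erythroid sums were 4.28 to 12.5 and 11.8 to 23.4. ITGAM was called lower among 3 measured microglial genes (−0.95, adjusted p = 0.0377), a call lost in 12 of 26 other settings, and it was −0.38 (adjusted p = 0.111) with normexp correction. FCER1G (0.47, adjusted p = 0.0762) and FCGR1A (0.11, adjusted p = 0.583) differed in the other direction and were not called. The microglial sums were 0.505 to 0.767 and 0.693 to 0.864.

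Of the 10 hypothalamic peptide genes 0 were called in the direct arm, but with the slide as a block 6 were called higher (AGRP, NPY, SST, GHRH, GAL and TAC3). Of all 13738 tested probes the block called 2970, 1114 of them higher, against 2511 and 921 without it. The blocked values do not rest on fetal triclosan replicate 4, which was alone on its slide. The peptide sums were 9.32 to 19.8 with fetal vehicle and 9.51 to 57.0 with fetal triclosan. The 4 pituitary genes had 0 called, with sums of 10.8 to 15.8 and 11 to 20.1, and the 2 genes of choroid plexus and ependyma 0, with 0.521 to 2.58 and 0.253 to 10.4. The part of these lists in the fall of HSPA5 and PDIA4 was not tested.

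In the indirect arm 0 marker genes were called, but several sums did not overlap between maternal vehicle and maternal triclosan. With so few arrays, groups without overlap were common. Every maternal triclosan array was below every maternal vehicle array for 19.3% of all tested probes, and above for 19.6%. The gaps between the sums were not tested. The peptide sum was 11.3 to 16 and 24.9 to 35.5, and the erythroid sum 3.27 to 9.04 and 10.5 to 27.3. The sum of choroid plexus and ependyma was 0.943 to 1.42 and 0.306 to 0.668, and that of endothelium and pericytes 0.968 to 1.06 and 0.856 to 0.963. Astrocyte sums were 62.3 to 69.9 and 67.4 to 77.7. Microglial sums were 0.812 to 0.852 and 0.692 to 0.823, and pituitary sums 13.7 to 15 and 14.3 to 17.7. The sums add linear signals, so the brightest genes weigh most. Of the 4 astrocyte genes, EAAT2 differed by −1.44 in limma (unadjusted p = 5.33e-05, adjusted p = 0.207). FGFR3 differed by −0.94, GFAP by −0.43 and AQP4 by 0.18. The part of these lists in the indirect values of PDIA4, HSPA5 and ATF4 was not tested.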

How the data were processed

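The authors deposited one scanner file per array. These contain intensity values per spot from Agilent Feature Extraction 10.1.1.1, per the file headers, and the deposited processed signal was background-subtracted but not normalised between arrays. The authors' deposited value table, which lists 13899 probes on what appears to be a log2 scale, served as an alternative, and how it was scaled is not stated. The submitters' processing notes name limma.

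The log2 processed signal minus each array's 75th percentile was averaged over spots of a probe, without control and outlier spots. Probes well above background on at least 3 arrays were kept (13738 probes, 249 missing values, 0 of them in member probes). Group means over 13 arrays were fitted in limma 3.58.1 (R 4.3.3), with 9 residual and 2.39 prior degrees of freedom. The moderated two-sided test was adjusted over all probes. The script was tested on simulated data. Symbols came from the files and the supplied RefSeq gene table: HSPA5 and DDIT3 by symbol, ATF4 by transcript, and PDIA4, XBP1 and DERL1 by gene number.

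The members and gene lists were chosen with earlier results of these data known. Named were all member probes, pathway genes that passed or had the smallest unadjusted p in the direct arm (up to 4 a list), marker genes that passed, and 3 neighbours per member by Pearson's r. Deviations of same-numbered arrays correlated at 0.131, 0.119 and 0.265 in the direct arm for replicates 1 to 3, which share slides, and at −0.172 for replicate 4, which does not. They correlated at −0.085 and −0.077 in the indirect arm and at 0.463 and 0.141 between vehicle groups. Since not every pair passed 0.1, the numbers were not taken as pairs. The main fit had no block, and the slide was a block in an alternative fit only. Alternatives were other scalings and backgrounds, filters, sample sets, blocks, array weights, a variance trend, other probes and each array left out. A planned motif search in promoters was not run, since promoter sequence was not used here. Plots were made with matplotlib.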

Additional observations from a re-analysis of the deposited data

Results flagged for a closer look

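Over 20 groups of 4 arrays (10 probes, fetal vehicle and fetal triclosan), chance alone marks about 1 group in 20. DDIT3 (A_70_P049676) was at −3.85 on fetal vehicle replicate 1, far above the other fetal vehicle arrays at −4.55 to −4.45, with a gap of 0.856 of the group's range. DERL1 (A_70_P035956) was at −0.44 on the same array, below the others at −0.19 to −0.15, with a gap of 0.871 of the range.

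For DERL1 (A_70_P035956), all 4 fetal triclosan arrays lay below the mean of fetal vehicle and all 3 maternal triclosan arrays lay above the mean of maternal vehicle, a difference between the arms of −0.61. The limma test of that difference did not pass (adjusted p = 0.257). Group means were −0.24 with fetal and −0.76 with maternal vehicle, against −0.53 with fetal and −0.44 with maternal triclosan. On the second DERL1 probe, fetal triclosan replicate 3 (−0.56) lay above the fetal vehicle mean of −0.61.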

How the results depend on the processing

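Over all 4 comparisons, 632 of 658 member values under another setting kept their direction and their side of the threshold. That count includes fits without an array of a group outside the comparison, where the difference itself cannot move. It also includes comparisons in which 0 probes were called, so it does not measure how stable the calls are. In the direct arm PDIA4 stayed called in each setting run (−1.16 to −0.70), while HSPA5 lost the call with median scaling, which left 1 member called and moved the share of higher among called probes from 36.7% to 69.5% (3059 probes). XBP1 was also called with normexp correction (−0.70, adjusted p = 0.0324), the authors' value table (−0.69, adjusted p = 0.0456) and array weights (−0.65, adjusted p = 0.0232). In 23 of 28 other settings XBP1 stayed uncalled. With all arrays kept, its difference ran from −0.77 to −0.36, with adjusted p up to 0.257. Leaving out each array in turn gave 2 to 3 members called. The probes called in the direct arm numbered 2511, 1589 with quantile normalisation, 1350 with only the compared groups, and 1250 to 2953 without 1 array, lowest without fetal vehicle replicate 3 and 1648 without fetal vehicle replicate 1. In the indirect arm array weights called 2 members and 378 of 13738 probes, all 14 arrays called 11 probes, and leaving out 1 array called 0 to 2. For the difference between the arms, 1 probe was called with quantile normalisation, 7 with all 14 arrays and 0 to 41 without 1 array (41 without fetal triclosan replicate 3), and for the vehicle groups 0 to 2.

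Signs turned as follows. ATF4 in the direct arm was 0.09 with median scaling. The other DDIT3 probe gave −0.17, 0.45 and −0.62 in the direct arm, the indirect arm and their difference, and DDIT3 between vehicle groups ran from −0.01 to 0.68 without 1 array. For the difference between the arms, median scaling gave 0.03 for HSPA5, 0.07 for XBP1 and 0.15 for PDIA4. PDIA4 was there also at 0.15 with quantile normalisation, 0.18 with normexp, 0.16 with the authors' table and −0.24 to 0.11 without 1 array, and XBP1 at −0.34 to 0.09 without 1 array. PDIA5 in the indirect arm was 0.0082 with median scaling, 0.0043 with quantile normalisation, 0.03 with normexp, 0.05 with the authors' table, 0.0039 with array weights and −0.10 to 0.05 without 1 array. CEBPB there was 0.17 with array weights and −0.59 to 0.15 without 1 array. The cause was not tested.

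With the replicate number as a block, 2819 probes and 2 members were called in the direct arm and 0 in the other comparisons, no member call changed, and the difference between the arms for PDIA4 was 0.10. The DDIT3, ATF6 and CEBPB probes were dim, and FLT1 was well above background on 8 of 13 arrays. Marker calls were lost in 9 of 26 settings for AHSP, 12 of 26 for ITGAM and 2 of 25 for FLT1.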
